A study of Arabidopsis thaliana with 23 samples.

Results

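The comparison described here set 3 small RNA libraries of zmp-2 plants that carry a ZMP-YFP transgene (zmp-2 ZMP-YFP, the complemented line) against 3 libraries of zmp-2 plants without it, 6 of the 23 libraries of the series. They were chosen by genotype and sequencing batch as labelled. All were made from Col-0 Arabidopsis inflorescences and sequenced in batch A, and both groups carry the zmp-2 T-DNA insertion in ZMP (AT5G63700). The transgene, pZMP::ZMP-YFP, is a genomic copy of ZMP under its own promoter, joined to the coding sequence of yellow fluorescent protein, in a line selected for a single insertion. The comparison asks which small interfering RNAs (siRNAs) returned or disappeared when ZMP was put back. WT libraries of batch A (n = 3) are given beside both groups. Batch B of the series held the double mutants zmp-2 shh1-1 and zmp-2 nrpd1-3 beside their own zmp-2 and WT controls (n = 3 each), and batch A also held nrpd1-3 (n = 2).

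In plants, the RNA polymerase Pol IV transcribes transposons and other repeats, RDR2 copies the transcripts into double-stranded RNA, and DCL3 cuts this into 24-nt siRNAs. These siRNAs guide DNA methylation to matching sequence, a pathway named RNA-directed DNA methylation. ZMP is a protein with zinc finger, MDM2/SWIB and Plus-3 domains that binds Pol IV, while NRPD1 is the largest Pol IV subunit and SHH1 brings Pol IV to chromatin carrying methylated histone H3. Reads of 24 nt are mostly products of this pathway, whereas 21- and 22-nt reads also hold microRNAs and siRNAs made by other Dicer enzymes.

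The unit of measurement was the 100-bp genome window, in which reads of 21, 22, 23 and 24 nt had been counted by their 5′ ends. Windows that carry the main results are shown first, as the plus strand of the TAIR10 genome (RefSeq TAIR10.1). Capitals mark bases covered by some 24-nt stretch that occurs only at that place in the genome; other stretches over the same base may be repeated. The first pair gained 24-nt siRNAs in the complemented line, and the second of them lies within the zmp hyposiR2 locus that the study probed on RNA blots. The other windows lost siRNAs, 3 of them in coding sequence. Of these, the AT4G32375 and AT5G22270 windows are unique throughout, while only 26% and 13% of the 24-nt stretches of the AT3G31375 pseudogene and AT1G43090 windows are unique.
gained, chr1:20466401-20466500: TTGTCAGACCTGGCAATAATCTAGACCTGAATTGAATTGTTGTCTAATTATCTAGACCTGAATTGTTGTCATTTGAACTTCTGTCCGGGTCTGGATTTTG
gained, chr4:6276001-6276100: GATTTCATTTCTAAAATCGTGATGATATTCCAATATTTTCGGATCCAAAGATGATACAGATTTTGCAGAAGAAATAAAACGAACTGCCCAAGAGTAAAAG
lost, AT3G31375, chr3:12748401-12748500: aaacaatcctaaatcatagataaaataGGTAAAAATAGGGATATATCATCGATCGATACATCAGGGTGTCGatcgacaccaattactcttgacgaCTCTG
lost, AT1G43090, chr1:16219001-16219100: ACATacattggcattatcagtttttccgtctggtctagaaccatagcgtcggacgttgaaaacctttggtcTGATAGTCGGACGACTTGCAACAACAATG
lost, AT4G32375, chr4:15629601-15629700: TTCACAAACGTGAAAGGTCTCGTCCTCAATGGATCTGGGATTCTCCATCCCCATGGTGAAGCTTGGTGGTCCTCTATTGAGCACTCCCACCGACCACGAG
lost, AT5G22270, chr5:7372601-7372700: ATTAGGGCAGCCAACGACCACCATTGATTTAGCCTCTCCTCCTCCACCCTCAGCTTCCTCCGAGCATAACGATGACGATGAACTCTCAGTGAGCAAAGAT

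Levels are given as RPMR, reads per M (mega) of the reads that aligned to 45S ribosomal RNA in the same library, which is the study's own scaling. The 6 libraries held 4.10 M to 9.90 M mapped reads and 0.263 M to 0.642 M 45S rRNA reads. Replicate 1 of zmp-2 ZMP-YFP stood apart from the other libraries of its group, with a chi-square per window of 3.38 and 3.54 against replicates 2 and 3, which differed from each other by 1.89. The zmp-2 libraries differed from one another by 1.97 to 2.39. Window counts of small RNAs do not measure transcripts, so neither inflorescence marker genes nor ZMP mRNA could be checked. In whole inflorescences, fewer cells with a given siRNA and less of it per cell cannot be told apart.

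A window was called when its fold change reached 2 with a false discovery rate (FDR) of 0.05 or less by edgeR's quasi-likelihood test. Of 150617 windows tested for 24-nt reads, 6033 were higher in the complemented line than in zmp-2 (4.01%) and 6542 were lower (4.34%). The shorter reads gave more gains than losses. For 23-nt reads, 3310 windows were higher (5.1% of 64887) and 1727 lower (2.66%). For 22-nt reads, 4265 were higher (9.01% of 47316) and 1659 lower (3.51%). For 21-nt reads, 2564 were higher (8.89% of 28833) and 943 lower (3.27%).

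These counts rested in part on the scaling and on single libraries, the losses most of all. The median log2 fold change over all tested 24-nt windows was -0.44 under rRNA scaling and -0.19 under TMM, so a window with no change relative to the rest read as slightly lower. Gains made up 48.0% of the 24-nt calls, but 66.1% under TMM, 63.9% under scaling on miRNA windows, and 77.2% and 60.5% under DESeq2 with its own and with rRNA size factors. For 23-nt reads the share was 65.7%, against 78.2% under miRNA scaling and 80.7% and 77.8% under DESeq2. The 22-nt share was 72.0%, against 82.7% under miRNA scaling and 84.99% under DESeq2 with rRNA size factors, and the 21-nt share was 73.1%, against 84.0% and 85.8% under DESeq2. Under TMM the 22- and 21-nt shares were lower, at 67.5% and 67.6%. Without zmp-2 ZMP-YFP replicate 2 the 24-nt gains fell to 3895 and the losses to 2855. The losses were 2949 without zmp-2 replicate 1, 4257 without zmp-2 replicate 2 and 3740 without zmp-2 ZMP-YFP replicate 3. Leaving out zmp-2 ZMP-YFP replicate 2 also left 1938, 2625 and 1543 gains and 743, 669 and 366 losses of 23-, 22- and 21-nt reads. The losses numbered 887, 820 and 426 without zmp-2 replicate 1, 1136 (23 nt) and 621 (21 nt) without zmp-2 ZMP-YFP replicate 3, and 1071 (22 nt) without zmp-2 replicate 3.

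**Figure D1:**
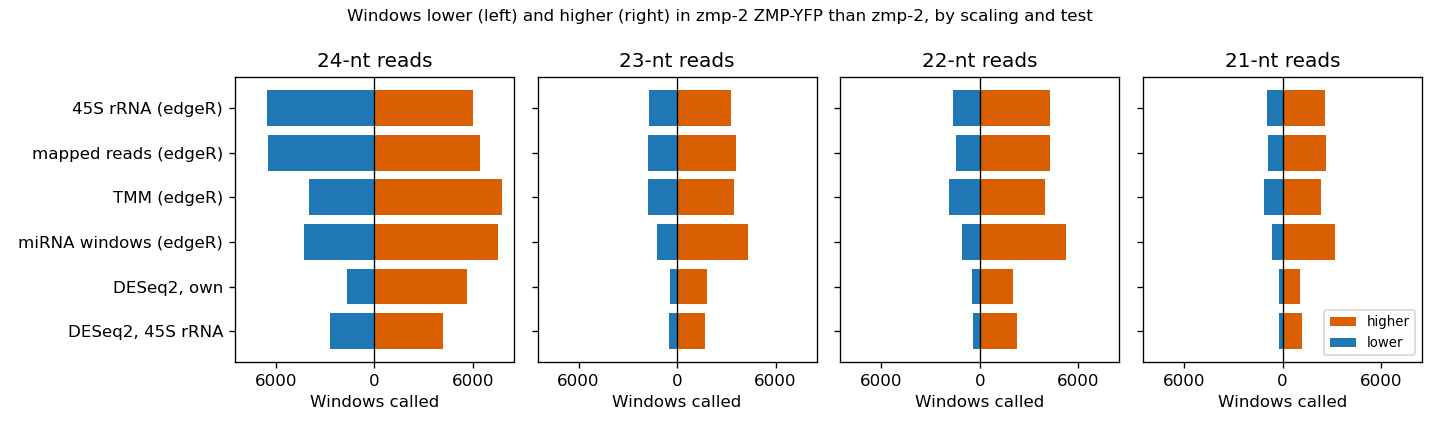
Number of 100-bp windows called lower (bars to the left) and higher (bars to the right) in the complemented line than in zmp-2, for reads of 24, 23, 22 and 21 nt, under 6 combinations of scaling and test. The 24-nt losses shorten from 6542 under 45S rRNA scaling to 1670 under DESeq2 with its own size factors, while the 24-nt gains stay between 4165 and 7800.

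A total of 12 gained windows shared the smallest FDR, and the 8 described here are tied among them. One lay between genes on chromosome 1 (20466401 to 20466500), 1704 bp from AT1G54890, which encodes a late embryogenesis abundant protein-like protein. Its 24-nt level was 33.3, 26.4 and 40.5 RPMR in the zmp-2 libraries and 580, 754 and 609 RPMR in the complemented line. The lowest transgenic library was thus far above the highest mutant library, and all were below WT, at 1017, 996 and 1065 RPMR. The log2 fold change was 4.22 (SE 0.27, edgeR FDR = 2.8e-08), and 176 gained windows had a larger one. The same window rose in every shorter size, with log2 fold changes of 4.26, 3.78 and 3.90 for 23-, 22- and 21-nt reads.

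The other leading gains were of the same kind: of the 8 loci, 6 lay between genes, and at least 97% of the 24-nt stretches of each leading window were unique. In the pseudogene AT5G35555 (chromosome 5, 13736401 to 13736500), 24-nt levels were 135, 170 and 205 RPMR in zmp-2 and 2599, 2889 and 2127 in the complemented line. Here the transgenic libraries lay above WT, at 2107, 1421 and 1989 RPMR (log2 fold change 3.89, SE 0.23, edgeR FDR = 2.8e-08). On chromosome 5 at 9612201 to 9612300, 2397 bp from EMB976, the levels were 544, 626 and 725 RPMR in zmp-2 and 5279, 4899 and 4364 in the complemented line, against 7040, 8085 and 7240 in WT. This window had the log2 fold change 2.94 (SE 0.19, edgeR FDR = 2.8e-08). The highest level of the 8 was on chromosome 2 at 6377401 to 6377500, near the pseudogene AT2G14843, where zmp-2 had 813, 909 and 931 RPMR and zmp-2 ZMP-YFP had 6843, 6722 and 5250. The remaining leading windows, on chromosome 1 (16162301 to 16162400, and 16365801 to 16365900 in the noncoding gene AT1G09485), chromosome 2 (1112801 to 1112900) and chromosome 5 (10041201 to 10041300), had log2 fold changes of 3.24 to 3.55.

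The leading losses differed in how many reads were left. At some windows the reads fell to almost none. In coding sequence of AT4G32375 (chromosome 4, 15629601 to 15629700), which encodes a pectin lyase-like protein, the zmp-2 libraries held 118, 68 and 139 24-nt reads and the zmp-2 ZMP-YFP libraries 1, 0 and 0. The ratio of zmp-2 to zmp-2 ZMP-YFP was 261, with a 95% counting interval of 46.4 to 10321 (edgeR FDR = 3.9e-08), and the 3 WT libraries held no read, so that zmp-2 was at least 20.5-fold higher than WT. In coding sequence of AT5G22270 (chromosome 5, 7372601 to 7372700), an uncharacterized protein, the zmp-2 libraries held 202, 125 and 232 reads, the zmp-2 ZMP-YFP libraries 3, 0 and 0, and WT none. There the ratio was 149 (95% counting interval 50.8 to 726, edgeR FDR = 4e-08), and zmp-2 was at least 35.7-fold higher than WT. A window on chromosome 5 (14107001 to 14107100), 237 bp from AT5G35950, which encodes a mannose-binding lectin family protein, held 142, 49 and 142 reads in zmp-2, and 0, 1 and 0 in the complemented line. Its ratio was 267 (95% counting interval 47.6 to 10575, edgeR FDR = 4e-08). These intervals and bounds cover counting error only.

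At other windows more reads remained in the complemented line, though unevenly. In the pseudogene AT3G31375 (chromosome 3, 12748401 to 12748500), zmp-2 had 1895, 1810 and 1697 RPMR and zmp-2 ZMP-YFP had 258, 193 and 183, beside 177, 182 and 193 in WT. The log2 fold change was -3.09 (SE 0.21, edgeR FDR = 2.9e-08), and this window belonged to the longest lower locus, of 23 called windows. In coding sequence of AT1G43090 (chromosome 1, 16219001 to 16219100), another pectin lyase-like gene, the level was 2145, 3374 and 1840 RPMR in zmp-2 and 50.9, 9.02 and 0 in the complemented line. The complemented line held only 15, 5 and 0 reads there, beside 1029, 895 and 1182 in zmp-2. WT spread as widely there, at 126, 8.10 and 82.9 RPMR (log2 fold change -7.02, SE 0.49, edgeR FDR = 3e-08). The remaining leading windows lay between genes, on chromosome 5 (12877501 to 12877600 and 12918901 to 12919000) and chromosome 4 (2060901 to 2061000), with log2 fold changes of -5.26, -3.76 and -4.32. Both chromosome 5 windows hold a common stretch of sequence, and the chromosome 4 window holds nearly the same stretch on the other strand. These windows are thus related in sequence. In contrast to the gains, 4 of the 8 leading losses had at most 40% unique 24-nt stretches (AT3G31375, AT1G43090 and both of these chromosome 5 windows), so their reads may have come from other copies.

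**Figure D2:**
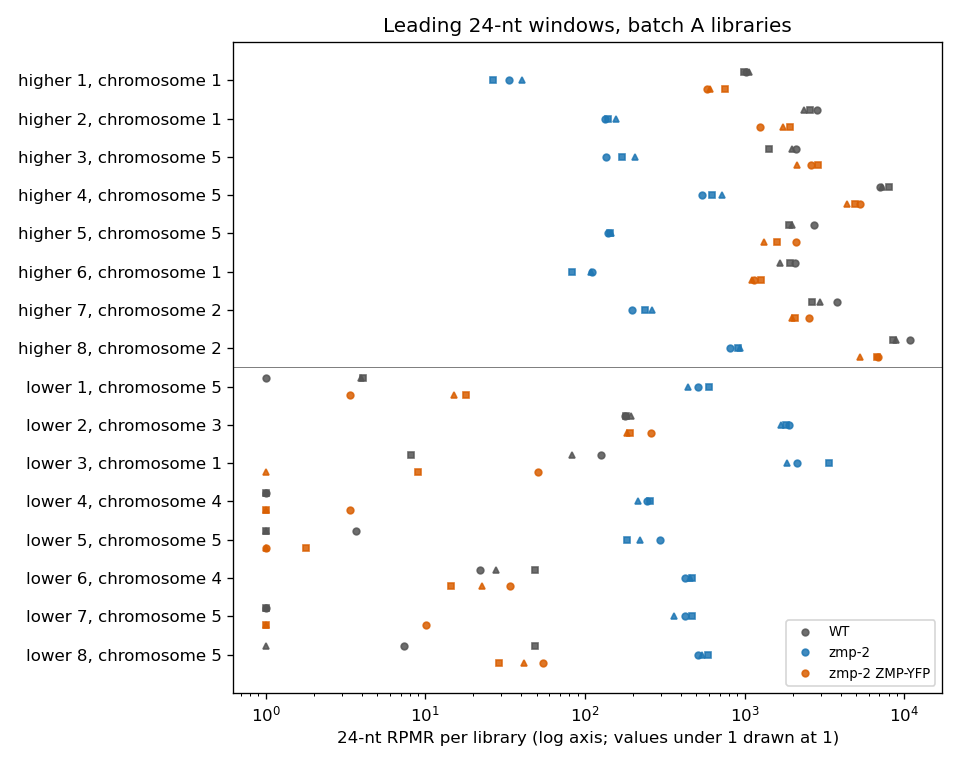
24-nt level (RPMR, log axis, values under 1 drawn at 1) of the 8 leading windows in each direction, in order of FDR, with a circle, a square and a triangle for replicates 1, 2 and 3 of WT, zmp-2 and zmp-2 ZMP-YFP in batch A. At each of the 16 windows the zmp-2 libraries stand clear of the zmp-2 ZMP-YFP libraries, which was a condition of their choice. At the first window the levels are 26.4 to 40.5 RPMR in zmp-2 against 580 to 754.

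Gains and losses ran through the size classes together. Of the 6033 windows that gained 24-nt reads, 2901 also gained 23-nt reads (48.1% of the 24-nt and 87.6% of the 23-nt gains), 3374 gained 22-nt reads (55.9% and 79.1%) and 2223 gained 21-nt reads (36.8% and 86.7%). Of the 6542 lost, 1268 were also called lower for 23-nt reads (19.4% and 73.4%), 1135 for 22-nt (17.3% and 68.4%) and 698 for 21-nt reads (10.7% and 74.0%). Not all could have been called: 5116, 4888 and 3826 of the 24-nt gains had enough 23-, 22- and 21-nt reads to be tested. Of the 24-nt losses 4223, 3516 and 2447 had enough. No window was called in opposite directions in 24-nt reads and another size. Each of the 16 leading 24-nt windows moved the same way in all 3 shorter sizes, past the FDR threshold except for 22-nt reads at the lost window on chromosome 4 (2060901 to 2061000, edgeR FDR = 0.17).

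Outside those loci, the shorter reads led to further sites. For 23-nt reads, the zmp hyposiR2 window on chromosome 4 (6276001 to 6276100), 848 bp from the cytochrome c gene CYTC-2, had 56.3, 64.1 and 79.4 RPMR in zmp-2 and 729, 611 and 468 in the complemented line (log2 fold change 3.16, SE 0.24, edgeR FDR = 1.4e-15). For 22-nt reads, a window on chromosome 3 (9988801 to 9988900) had 43.8, 33.9 and 73.2 RPMR in zmp-2 and 753, 840 and 879 in the complemented line, beside 632, 765 and 730 in WT (log2 fold change 3.95, SE 0.25, edgeR FDR = 4.8e-27). Its 24-nt reads rose less, with a log2 fold change of 2.72. For 21-nt reads, a window in coding sequence of SULTR1;1 (AT4G08620, chromosome 4, 5505801 to 5505900), a sulfate transporter, had 31.3, 30.2 and 34.2 RPMR in zmp-2 and 292, 341 and 278 in the complemented line (log2 fold change 3.23, SE 0.29, edgeR FDR = 6.4e-17).

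Outside the leading 24-nt loci there were losses of shorter reads too, at windows whose 24-nt reads were also called lower. The first 22-nt loss among them by FDR lay in the pseudogene AT3G28800 (chromosome 3, 10817301 to 10817400), where zmp-2 had 692, 645 and 595 RPMR and zmp-2 ZMP-YFP 129, 81.1 and 129 (log2 fold change -2.54, SE 0.24, edgeR FDR = 6.2e-17). It belonged to the longest 22-nt lower locus, of 11 windows. The first 21-nt loss outside those loci was on chromosome 4 (14455201 to 14455300), 302 bp from AT4G29370, a kelch repeat gene, with 190, 196 and 201 RPMR in zmp-2 and 30.5, 23.4 and 11.4 in the complemented line (log2 fold change -3.11, SE 0.33, edgeR FDR = 7e-14). WT lay between the groups there, at 44.4, 72.9 and 43.4 RPMR.

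Gained windows stood side by side more often than lost windows did. Joined where at most 200 bp apart, the 6015 gained 24-nt windows on the 5 nuclear chromosomes formed 1957 loci, of which 820 were single windows, and 51.3% of the windows lay in loci of 5 or more. The 6541 lost windows formed 4382 loci, of which 3258 were single windows, and 13.9% of the windows lay in loci of 5 or more. The longest gained locus was a run of 44 called windows over 5600 bp of chromosome 4 (3319701 to 3325300), in the pericentromere. The longest lost locus, on chromosome 3 (12746801 to 12749600), spanned 2800 bp. The median log2 fold change was 1.95 over gained and -2.26 over lost 24-nt windows, which the threshold itself shapes.

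The features under the calls differed as well. Coding sequence held 4.87% of the tested 24-nt windows on nuclear chromosomes, 7.66% of the gains and 6.96% of the losses. Untranslated regions held 1.46% of tested windows, 0.948% of gains and 3.24% of losses. Pseudogenes, which in this annotation include transposon-derived genes, held 33.9% of tested windows, 21.5% of gains and 30.6% of losses, and intergenic sequence 55.1%, 63.8% and 54.4%. Windows with at least 90% unique 24-nt stretches were 41.4% of those tested, 70.0% of the gains and 43.1% of the losses, whereas windows under 50% unique were 31.9%, 10.3% and 38.1%. Read placement among copies may bear on this pattern and was not tested. The tested windows change with the count minimum: with no filter beyond 1 count, coding sequence held 14.7% of tested windows, more than of the gains (7.72%) or losses (6.53%), and windows with at least 90% unique stretches were 58.5%, 69.0% and 39.9%.

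By chromosome position, gains followed the tested windows and losses leaned to the arms at the count minimum of 10, but not at every minimum. The pericentromere was taken as the block around each centromere where coding coverage, in smoothed 100-kb bins, stayed under 0.5 of the median bin of that chromosome. It held 56.1% of the tested 24-nt windows, 55.7% of the gains and 41.6% of the losses. In the arms 4.07% of tested windows were gained and 5.83% lost, against 3.99% gained and 3.24% lost in the pericentromere. With no filter beyond 1 count, the pericentromere held 42.7% of tested windows, 55.0% of the gains and 42.6% of the losses, so that the losses followed the tested windows and the gains leaned to the pericentromere. With at least 30 counts these shares were 47.7%, 55.4% and 41.4%. At the minimum of 10, the leaning of losses to the arms held on each chromosome, least on chromosome 5 (4.38% of pericentromeric and 5.37% of arm windows lost) and most on chromosome 4 (2.67% and 6.55%).

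The distance from the bin with the lowest coding coverage, which lies near the centromere, showed more detail. Gains made up 2.94% of the windows within 1 Mb, 4.70% to 4.95% of those from 1 to 4 Mb, and 2.80% to 4.09% farther out. Losses were 3.49% of the windows within 1 Mb, 3.19% at 1 to 2 Mb and between 6.53% and 6.96% beyond 4 Mb. Chromosome 5 had many losses close to this bin as well, with 162 of 1990 tested windows in the bin at -0.75 Mb. By chromosome, 3.62% (chromosome 2) to 4.36% (chromosome 5) of tested windows were gained and 3.78% (chromosome 3) to 4.97% (chromosome 1) lost. No window of the chloroplast genome was called among 262 tested, in either direction, and the mitochondrial genome had 18 gains and 1 loss among 905. For the shorter reads the gains did lean to the pericentromere, where 12.0% of tested 21-nt, 10.9% of 22-nt and 5.88% of 23-nt windows were gained, against 7.29%, 7.67% and 4.56% in the arms.

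**Figure D3:**
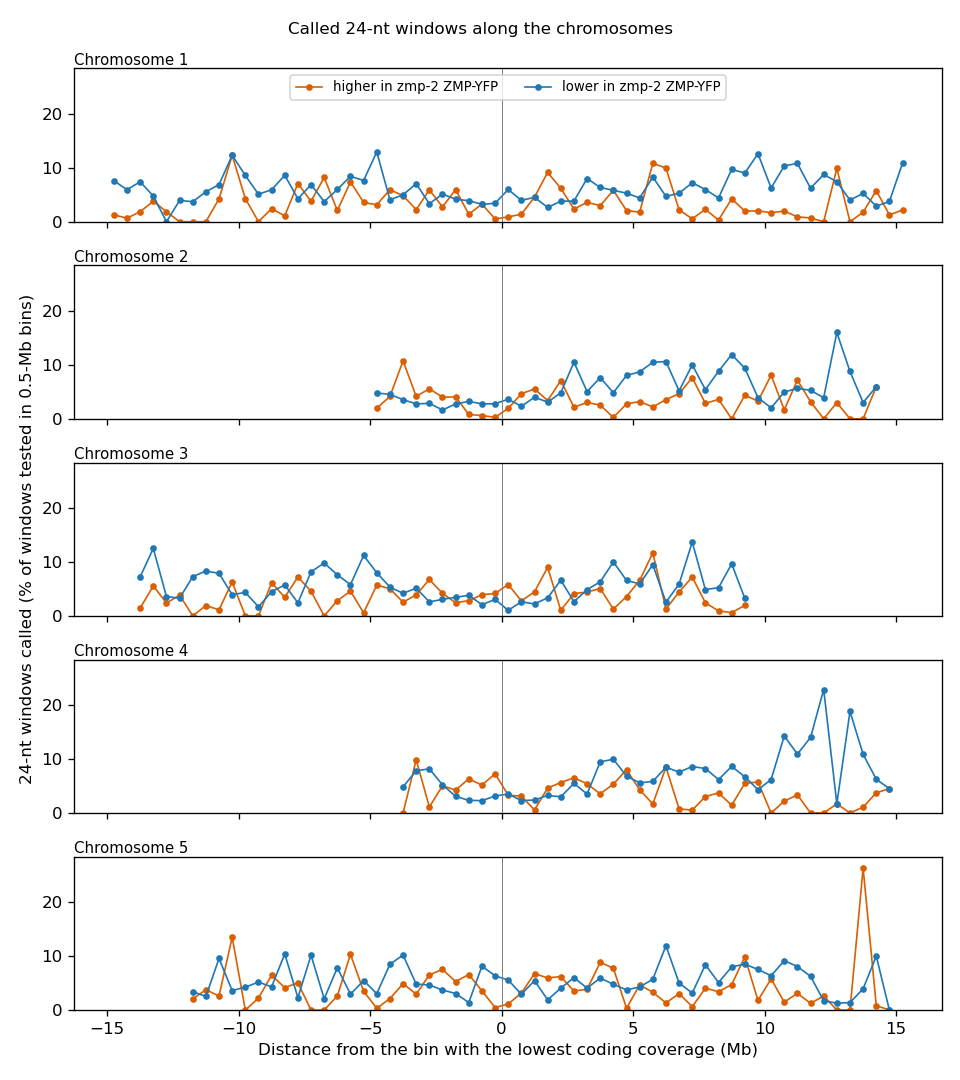
Share of tested 24-nt windows called higher (orange) or lower (blue) in the complemented line than in zmp-2, in 0.5-Mb bins with at least 20 tested windows, against distance in Mb from the bin of lowest coding coverage on chromosomes 1 to 5. Over the 5 chromosomes losses are fewest 1 to 2 Mb from position 0 (3.19%) and most frequent beyond 4 Mb, chromosome 5 also has losses next to position 0 (162 of 1990 windows at -0.75 Mb), and the tall orange point on the right arm of chromosome 5 is the bin that holds the ZMP fragment carried by the transgene, with 16 gained windows.

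Gains covered some genes nearly end to end. Called windows higher in the complemented line lay in 250 protein-coding genes, 104 of them with at least 3, out of 3147 with a tested window. AGL36 (AT5G26650), a MADS-box transcription factor gene, had 12 of 13 tested windows called, and its summed 24-nt level was 367, 381 and 472 RPMR in zmp-2 and 2541, 4539 and 3907 in the complemented line, a 9.01-fold difference of means. The methyltransferase gene AT2G16030 had 13 of 15 windows called and rose from 2222, 2375 and 2464 RPMR to 15103, 17376 and 14315, 6.63-fold. Its neighbour AT2G16040, which encodes a hAT transposase-like protein, had 12 of 17 called and was 4.53-fold higher. AT2G04060, a glycosyl hydrolase family 35 gene, had the most called windows, 20 of 27, and was 5.47-fold higher. The other leading genes, AT4G03580, AT5G27606, AT4G06526 and AT3G42310, had 13 to 16 called windows and ratios between 4.03 and 6.87. In each of these 8 genes the groups did not overlap, and no window was called the other way. As the genes were chosen by their called windows in these same libraries, this was largely set by the choice.

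Losses touched more genes, mostly at a few windows each. They lay in 604 protein-coding genes, of which 78 had at least 3 called windows. SWEET12 (AT5G23660), a sucrose efflux transporter gene, had 8 of 11 tested windows called, and its summed 24-nt level was 11027, 12883 and 11399 RPMR in zmp-2 and 5655, 4869 and 3831 in the complemented line. WT was close to the transgenic plants there, at 5302, 4826 and 4987 RPMR. AT2G25410, a RING/U-box gene of the kind that encodes ubiquitin ligases, had 9 of 10 called and fell from 9698, 9889 and 8217 RPMR to 4342, 3336 and 2910. The SAUR-like auxin-responsive gene AT2G16580 had 9 of 10 called and a ratio of 0.393, with 3599, 4384 and 3751 RPMR left in the complemented line against 721, 397 and 395 in WT. AT2G16575 (7 of 7 called) overlaps it on the opposite strand, and as the windows carry no strand the genes cannot be told apart. The cysteine-type peptidase gene AT2G07240 had the lowest ratio, 0.200, with 9 of 32 windows called. AT5G44770 had the most called windows, 12 of 13, and kept 2650, 1652 and 1613 RPMR in the complemented line, against 7.39, 16.2 and 11.8 in WT. The other leading genes were UNE15 (AT4G13560) and AT2G14700, with ratios of 0.501 and 0.446.

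Listed loci gave a mixed picture, first of all those of the study's RNA blot probes. The blot loci were picked by the study from its own libraries and are not independent of them. At zmp hyposiR1 (chromosome 3, 11042700 to 11042950) all 4 windows gained 24-nt reads, with 2047, 1927 and 1876 RPMR in zmp-2 and 7854, 6600 and 5425 in the complemented line. At zmp hyposiR2 (chromosome 4, 6275900 to 6276200) 3 of 4 windows did, from 456, 550 and 724 RPMR to 6269, 5500 and 4386. At zmp hypersiR2 (chromosome 1, 16269501 to 16270000, in the B3 domain gene AT1G43171) both tested windows were lower, with 215, 166 and 115 RPMR in zmp-2 and 30.5, 18.03 and 7.61 in the complemented line. The zmp hypersiR1 locus (chromosome 2, 145650 to 146649, in MEE65) was not lowered: none of its 9 tested windows was called lower and 2 were called higher in the complemented line. Its levels were 142, 121 and 90.3 RPMR in zmp-2, 122, 301 and 369 in the complemented line, and 11.1, 0 and 0 in WT.

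Known targets of RNA-directed DNA methylation, taken with 2 kb on either side, are given beside a background of 4.01% of all tested 24-nt windows higher and 4.34% lower. ALN (AT4G04955), which encodes the ureide-degrading enzyme allantoinase, had 8 of 23 tested 24-nt windows higher and none lower, with 10775, 11982 and 11128 RPMR in zmp-2 and 21674, 18250.5 and 15422.5 in the complemented line. EPF2 (AT1G34245), a peptide that limits stomatal density, had 5 higher and 3 lower windows of 16. ROS1, a DNA demethylase gene, had 1 higher window of 3, SDC, an F-box gene silenced by methylation, had 4 lower of 16, and FWA and QQS had none called of 6 and 17. Of 4 further listed genes, AT2G20465 had 1, AT4G11485 had 3 and AT5G43755 had 2 lower windows, and AT3G07775 had none called (edgeR FDR of its better window 0.21). These 4 were examples that the study picked from its own data. AT2G20465 and AT4G11485 came from its small RNA libraries and are not independent of them. No window of the TAS genes, which give rise to trans-acting siRNAs, was called in any size.

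Gene families differed in how often their windows were called. Among genes for NLR immune receptors, 23 of 304 tested 24-nt windows were lower (7.57%) and 1 higher (0.329%). These lay in 12 and 1 of 33 genes (36.4% and 3.03%), beside 19.2% and 7.94% of all protein-coding genes with a tested window. Over all tested windows 4.34% were lower and 4.01% higher, and over those in protein-coding genes 6.39% and 5.15%. The median log2 fold change of the NLR windows was -0.82, beside -0.44 over all windows, and losses outnumbered gains under each scaling and test run. The number of NLR losses was unsteady. It was 6 of 304 under DESeq2 with its own size factors, where 1670 of all 150617 windows were lower. Without zmp-2 ZMP-YFP replicate 2 it was 6 of 282, beside 2855 of all 136930. Without zmp-2 ZMP-YFP replicate 1 it was 31 of 292. Among defensin genes, whose products are small antimicrobial peptides, 22 of 150 windows were lower (14.7%) and 17 higher (11.3%), an order that turned under TMM (14 and 20), miRNA scaling (15 and 20) and DESeq2 (9 and 14 with its own, 10 and 12 with rRNA size factors). Among annotated miRNA genes, 14 of 399 tested 21-nt windows were lower (3.51%) and 5 higher, close to the background for losses and below it for gains. The counts were 4 lower and 4 higher without zmp-2 replicate 1, 27 and 3 without zmp-2 replicate 3, and 23 and 5 without zmp-2 ZMP-YFP replicate 1. Under DESeq2 they were 4 and 2 with either size factors.

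The same windows were also read in libraries that the comparison did not use. In batch B, 6.12% of 99044 tested windows were lower and 1.82% higher in zmp-2 than in WT. Of the 6033 gained windows 5773 could be tested there, and 4008 of them (69.4%) were lower in zmp-2 than in WT and 10 higher. The log2 fold change was below 0 in 98.5% of them, against 54.7% of all windows tested in both batches. Of the 6542 lost windows 5216 could be tested, and 1094 (20.97%) were higher in zmp-2 than in WT and 30 lower, with 84.4% above 0 against 45.3% of all windows. Over the settings run, the share of 69.4% ranged from 60.9% (TMM) to 83.6% (DESeq2 with rRNA size factors). The share of 20.97% rested on the set of losses called: it was 33.5% without zmp-2 replicate 1, 34.6% and 48.2% under DESeq2 with rRNA and with its own size factors, and 17.98% to 30.9% under the other settings run. The 16 leading windows each moved in zmp-2 of batch B opposite to their change in the complemented line, with log2 fold changes of -4.61 to -3.24 at the gains and 2.13 to 8.33 at the losses (edgeR FDR at most 0.00096).

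Read from the batch B side, the return was wide. Of the 5899 windows lower in zmp-2 of batch B that could be tested in batch A, 4008 (67.9%) were higher in the complemented line than in zmp-2, and 94.6% had a log2 fold change above 0, with a median of 1.59. Of the 1731 windows higher in zmp-2 of batch B, 1094 (63.2%) were lower in the complemented line, and 94.3% were below 0, with a median of -2.01. Over the settings run, the called share of the first set was 54.3% (without zmp-2 ZMP-YFP replicate 2) to 76.9% (TMM). In the second set it was 42.3% (DESeq2 with its own size factors) to 69.1% (at least 30 counts). By position, 71.7% of the pericentromeric and 64.2% of the arm windows of the first set were called, and 58.3% and 66.5% of the second. The share called ran from 65.4% to 72.6% over the 5 chromosomes in the first set, and from 56.0% to 68.1% in the second. Both sets moved together in all sizes: mean levels of 24-, 23-, 22- and 21-nt reads per window differed by 1.45, 1.45, 1.79 and 1.60 on the log2 scale in the first set and by -1.76, -1.56, -1.47 and -1.56 in the second. The groups did not overlap in any of these 8 comparisons (by exact permutation, two-sided, each p = 0.1, the lowest that 3 against 3 libraries allow, and 0.1 after Benjamini-Hochberg adjustment over the 8).

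**Figure D4:**
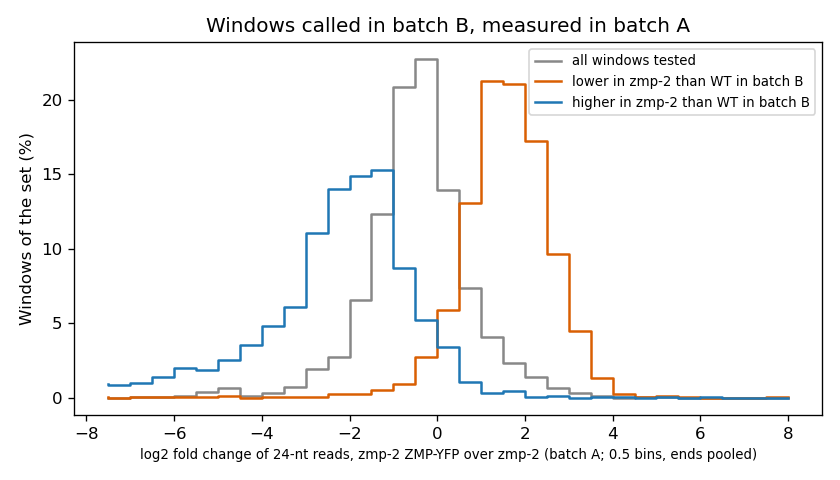
Distribution of the log2 fold change of 24-nt reads, zmp-2 ZMP-YFP over zmp-2 in batch A, for all tested windows (grey) and for windows called lower (orange) or higher (blue) in zmp-2 than WT in batch B, as percent of each set in bins of 0.5. The medians are -0.44, 1.59 and -2.01, so both sets lie on opposite sides of the bulk.

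The transgenic libraries differed in how far they moved toward WT. At the windows lower in zmp-2 of batch B, zmp-2 ZMP-YFP replicates 1, 2 and 3 covered 73.0%, 80.9% and 69.1% of the 24-nt distance from the zmp-2 mean to the WT mean of batch A, measured on the log2 scale of RPMR, and 84.9%, 94.7% and 87.6% when scaled to all mapped reads. For 22-nt reads the same figures were 73.8%, 89.6% and 87.5% with RPMR. At the windows higher in zmp-2, they covered 60.3%, 94.95% and 108% of the 24-nt log2 distance with RPMR, and 53.1%, 83.0% and 89.6% when scaled to all mapped reads. Replicate 1 retained the most there, with 83.0 RPMR per window, against 51.3 and 42.8 in replicates 2 and 3 and 44.6 to 54.2 in WT.

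**Figure D5:**
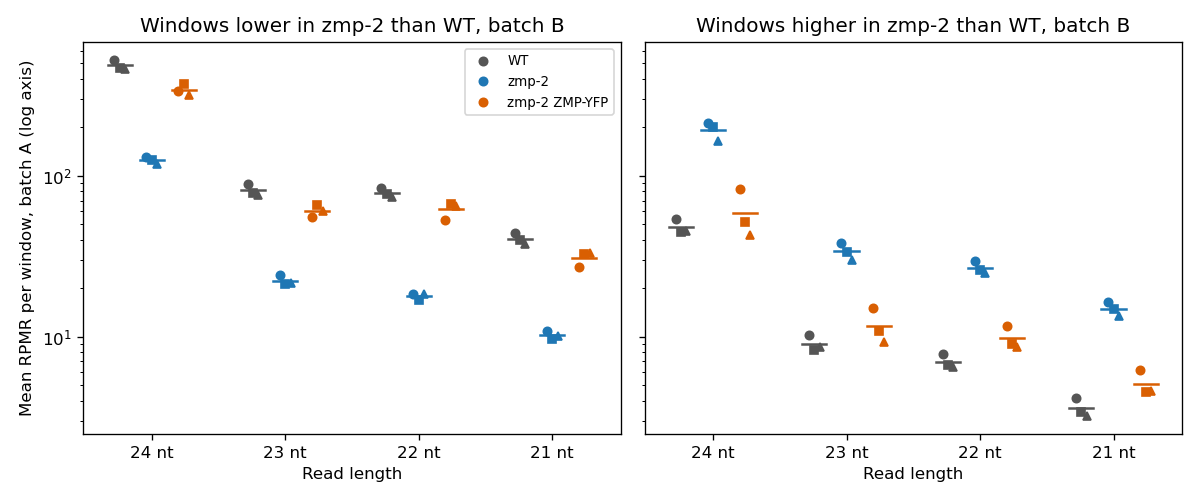
Mean level per window (RPMR, log axis) in batch A of reads of 24, 23, 22 and 21 nt at windows lower (left) and higher (right) in zmp-2 than WT in batch B; points are libraries (circle, square and triangle for replicates 1, 2 and 3) and bars are means of 3. In every size the zmp-2 ZMP-YFP libraries lie on the WT side of zmp-2, and on the right replicate 1 (83.0 RPMR at 24 nt) stands above replicates 2 and 3.

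Levels in WT of batch A differed between gained and lost windows. Gained windows averaged 395 RPMR ± 25.6 in WT, 295 ± 25.1 in the complemented line and 82.3 ± 2.49 in zmp-2 plants (SD, n = 3 each). Lost windows averaged 54.9 ± 5.68, 36.9 ± 8.55 and 119 ± 13.5 RPMR, in the same order (SD, n = 3 each). The WT mean was above both other groups at 78.6% of gained windows, and between them at 20.5%. At lost windows it was between them at 77.2% and below both at 19.0%, and 626 lost windows (9.57%) held no 24-nt read in any WT library. The windows were called for a difference between the other 2 groups, which by itself favours a WT mean between them. No share over all tested windows was set beside these, and the place of WT was read under rRNA scaling only.

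Loss of Pol IV lowered nearly all gained and lost windows that could be tested, as it did nearly all 24-nt windows. In nrpd1-3, 98.7% of 81451 windows were lower than in WT, including all 5840 gained windows tested and 3955 of 3962 lost ones. The rest of the 6542 lost windows held too few reads in nrpd1-3 and WT to be tested. The double mutant zmp-2 shh1-1 was tested against zmp-2 of batch B under rRNA scaling only. Its libraries held 0.978 M to 1.53 M 45S rRNA reads, against 0.384 M to 0.470 M in zmp-2. In zmp-2 shh1-1 plants, 28.9% of 101166 windows were lower than in zmp-2. Of the gained windows 295 of 5224 (5.65%) were lower there, and of the lost windows 1956 of 5782 (33.8%), beside 30.1% of all windows tested in both. The median log2 fold change was -0.32 at gained and -0.83 at lost windows, beside -1.05 over all of these. The drop rested on the scaling. At windows higher in zmp-2 than WT of batch B, mean 24-nt levels went from 86.7 RPMR in zmp-2 to 40.1 in zmp-2 shh1-1. Per M mapped reads they were 12.0 and 11.6. At windows lower in zmp-2 the levels were 43.5 and 32.1 RPMR, but 6.07 and 9.12 per M mapped reads. In zmp-2 of batch B, gained windows held 29.4 RPMR ± 4.41 and lost windows 42.8 ± 7.69 (SD, n = 3 each). Whether this level bears on the shares was not tested. Among the 8 leading losses, the window near AT5G35950 alone was lower in zmp-2 shh1-1, with 25, 30 and 8 reads in zmp-2 and 2, 0 and 0 in the double mutant.

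Small RNAs from the ZMP sequence carried by the transgene abounded in 1 library. Reads of the transgene and of the resident ZMP gene cannot be told apart in that sequence. In the genomic fragment it carries (chromosome 5, 25493937 to 25499412, set by the cloning primers), zmp-2 ZMP-YFP replicate 1 held 3348, 1025, 1398 and 4963 reads of 24, 23, 22 and 21 nt, replicate 2 held 22, 8, 10 and 26, and replicate 3 held 6, 2, 3 and 5. The zmp-2 libraries held at most 10 of any size. The reads of replicate 1 did not fill the fragment: 708 lay in the window at -786 bp from the gene start, 4 in the next one upstream and at most 1 in any window beyond. The cloning primers that set the ends of the fragment were as follows, with the first 4 bases of the forward primer added for cloning.
forward primer: caccaggatttgtataataatgaagcc
reverse primer: atcgatatttataaccgcctcatg
In the 2 kb beyond each end no library of either group held more than 2 reads of any size. The 16, 15, 22 and 26 higher calls of 24-, 23-, 22- and 21-nt windows in the fragment rested on replicate 1, since 0, 0, 0 and 1 windows there had enough reads to be tested without it, except that the 21-nt window that could be tested was still called higher. Over the genome, leaving replicate 1 out gave 6341 gains and 7845 losses of 24-nt reads.

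The overall size makeup changed little. Reads of 24 nt were 60.7% ± 1.44 of all 21- to 24-nt reads in the complemented line and 61.5% ± 0.793 in zmp-2 (n = 3 each, ± SD; two-sided p = 0.6 by exact permutation, and 0.8 after adjustment over 4 sizes). The 22-nt share was 13.1% ± 0.775 against 11.9% ± 0.407 (SD, n = 3 each), without overlap (exact permutation p = 0.1, adjusted 0.4). The exact permutation test cannot go below p = 0.1 with 3 against 3 libraries, so it cannot decide on this difference. The shares of 23 and 21 nt differed by 0.0942 and -0.478 percentage points (exact permutation p = 0.8 and 0.3, adjusted 0.8 and 0.6). Pericentromeric windows took 34.0%, 35.3% and 35.6% of the 24-nt reads in the complemented line and 32.8%, 32.6% and 33.0% in zmp-2, a difference of 2.19 points without overlap (by exact permutation, two-sided, p = 0.1, the lowest that 3 against 3 allow). WT of batch A held 34.4% ± 0.291 (SD, n = 3), within the range of the transgenic libraries.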

How the data were processed

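The deposited files give, for each library and each 100-bp window, the counts of 21- to 24-nt reads per 5′ end, the same values as RPM, scaled to mapped reads, and as an RPMR score, scaled to 45S rRNA reads. To make them, the authors trimmed 50-nt single-end reads, removed matches to structural RNAs with Bowtie 1.1.0 and placed the rest on TAIR10 with ShortStack without mismatches, dividing multi-mapping reads by nearby unique reads. Windows with at least 10 counts over the 6 libraries were tested with edgeR 4.0.16 in R 4.3.3, with 45S rRNA reads as library size, and p-values were adjusted over all windows of a size. The scripts were tested on simulated data. Alternatives were total-read, TMM and miRNA scaling, DESeq2 1.42.0, other count minimums, a replicate block and each library left out. The named genes are the 8 protein-coding genes with the most called windows in each direction. The named windows are the 8 loci of 24-nt reads with the smallest FDR in each direction, without overlap between groups, (8 of 12 windows tied at the smallest FDR for the gains, in no further order) and the 2 further ones for each other size, of which those described are a part. The listed loci and families came in addition. Members and lists were chosen with earlier results of these data known. Gene features came from the RefSeq TAIR10.1 annotation. The labels give numbered biological replicates, and nothing else says how plants were grown apart.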

Additional observations from a re-analysis of the deposited data

How the results depend on the processing

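Over the 8 counts of called windows, total-read scaling kept each within 1.5 times its main value. The 24-nt losses (6542) were 4003 under TMM, 4270 under miRNA scaling, and 1670 and 2722 under DESeq2 with its own and with rRNA size factors. Under the same DESeq2 fits, the 23-, 22- and 21-nt gains were 1817 and 1702, 2007 and 2260, and 1076 and 1163, and the losses 434 and 485, 454 and 399, and 205 and 192. The 22-nt losses were 1094 under miRNA scaling and 1104 with at least 30 counts, and the 21-nt losses 606 with at least 30 counts. With no filter beyond 1 count, 23-, 22- and 21-nt losses were 1124, 881 and 451. Leaving out single libraries gave 3895 to 6341 gains and 2855 to 7845 losses of 24-nt reads, 1938 to 3423 and 743 to 1848 of 23-nt, 2625 to 4672 and 669 to 1940 of 22-nt, and 1543 to 2613 and 366 to 1043 of 21-nt reads.

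The difference in the 24-nt share reversed to 0.0171 percentage points without zmp-2 ZMP-YFP replicate 3, and that in the 23-nt share to -0.0132 and -0.0482 without zmp-2 replicate 2 and without zmp-2 ZMP-YFP replicate 3. With each library left out in turn, the 24-, 23-, 22- and 21-nt shares differed by -1.40 to 0.0171, -0.0482 to 0.331, 0.724 to 1.48 and -0.693 to -0.269 points, and the pericentromeric share by 1.90 to 2.66. Log2 differences at windows lower in zmp-2 of batch B ranged over 1.39 to 1.51, 1.39 to 1.51, 1.72 to 1.89 and 1.55 to 1.69 for 24-, 23-, 22- and 21-nt reads, and at windows higher there over -2.03 to -1.56, -1.75 to -1.40, -1.60 to -1.39 and -1.71 to -1.48. The 16 leading 24-nt windows kept their direction and call in all 192 alternatives run on them.

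Replicate numbers did not pair the samples: same-numbered libraries of the 2 groups had correlations of 0.0213, -0.0308 and 0.0326 in their deviations at 24 nt. With the replicate block there were 5902 gains and 7066 losses of 24-nt reads, 2930 and 1465 of 23-nt, 3667 and 1178 of 22-nt, and 2173 and 698 of 21-nt reads.

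Depth limits windows with few reads, where a loss is bounded by counting error. With 3 libraries a group, no exact test over libraries can go below p = 0.1. The transgenic line is a single insertion line, so its own position and expression cannot be told apart from the return of ZMP.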
